A study of Mus musculus with 57 samples.

Results

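Cadherins and protocadherins are calcium-dependent adhesion molecules of the cell surface. Classical cadherins bind like cadherins on the neighbouring cell and are anchored to actin through catenins, and in the brain they are known for sorting neurons into nuclei and layers and for holding synapses together. Protocadherins bind more weakly but very selectively, and the clustered ones give single neurons different surface identities. Celsr proteins are large seven-pass cadherins that guide axon tracts through planar polarity signalling, and calsyntenins (Clstn) are synaptic cadherins that also link vesicle cargo to kinesin motors.

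Expression of this gene family was examined in the nucleus accumbens (NAc), the prefrontal cortex (PFC) and the ventral midbrain (VMB, called the ventral tegmental area in the labels) of male C57Bl/6NCrl mice. Every mouse had chosen between 10% ethanol and tap water in its home cage for 16 sessions of 18 hours, and tissue was taken 6 days after the last session, so there is no ethanol-naive group and the comparisons are between regions and between mice. RNA of each animal was hybridized to 1 Affymetrix array per region, with 19 arrays per region and 57 in all, whose replicate numbers run over 20 values. Among the 57 arrays none is numbered 10 in NAc, 6 in PFC or 20 in VMB, and the ethanol intake of each mouse was not used here.

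Genes were taken when a probeset annotated to that gene alone carried a symbol that begins with Cdh and a digit, Pcdh, Celsr or Clstn. For each gene the probeset with the highest mean deposited signal was used, and a gene was kept when that signal reached 4.5 (log2) on at least 1 array. The symbol rule found 53 genes, of which 46 were kept, out of 11336 genes kept on the whole array. The 46 are 4 type I classical cadherins, 8 type II classical cadherins, 4 other cadherins, 3 Celsr genes, 3 calsyntenins, 3 delta-1 protocadherins, 3 delta-2 protocadherins, 16 genes of the clustered beta group (Pcdhb) and 2 other protocadherins. The 7 genes dropped were Cdh1, Pcdhb4, Pcdhb14, Pcdhb15, Pcdhb16, Pcdhb18 and Pcdhb22. Just inside the limit, Pcdhb1 peaked at 4.51 and Pcdhb10 at 4.52, each reaching 4.5 on 1 array, and just outside it Pcdhb22 peaked at 4.47. A further 6 probesets with a matching symbol are shared by several genes, the Pcdha cluster among them, and were left out. Only 23 members reached 4.5 on all 57 arrays, and just 3 of these (Pcdhb9, Pcdhb17 and Pcdhb20) were Pcdhb genes. Another 8 (Cdh17, Celsr1, Pcdh1, Pcdhb1, Pcdhb6, Pcdhb10, Pcdhb11 and Pcdhb13) reached it on NAc arrays only, and so passed through the region where the deposited values are highest.

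The median signal of an array was 6.26 to 6.32 in NAc but 5.66 to 5.70 in PFC and 5.79 to 5.86 in VMB as deposited. On the deposited values the median probeset was 0.72 higher in NAc than in PFC and 0.55 higher in NAc than in VMB, so all arrays were first put on a common scale by quantile normalization, which left median differences of 0.03 and 0.02. All levels and differences below are log2 signal on that scale unless said otherwise. By the means of the marker lists, the tissues carried the markers of their labels. The mean of 6 striatal neuron genes was at least 9.85 in NAc and at most 7.54 elsewhere, that of 2 cortical excitatory neuron genes was at least 8.11 in PFC and at most 6.76 elsewhere, and that of 5 dopamine neuron genes was at least 7.21 in VMB and at most 6.02 elsewhere. Single genes did not all follow their list. Of the 5 dopamine neuron genes, 3 were called lower in NAc than in VMB at a minimum difference of 1. Nr4a2 was 1.54 higher in NAc (limma at 1, adjusted p = 9.64e-07), and Pitx3 differed by 0.16. The mean of the cortical genes was also higher in NAc than in VMB, with medians of 6.30 and 3.48. The array titled PFC replicate 20 is labelled ventral tegmental area in other fields. It was kept as PFC by its title, its cortical and dopamine marker means were 8.45 and 4.66, and the counts of calls below were repeated without it. The arrays least like the others of their region were found by mean correlation over all tested probesets. They were NAc replicates 1, 6 and 19, PFC replicates 3, 10 and 14, and VMB replicates 1, 3 and 4. These held the lowest or the highest value for 35, 26 and 24 of the 46 members in NAc, PFC and VMB. They were picked as outlying and the share over all probesets was not counted, so this is not read as a result about the members. The counts of calls were also repeated without these arrays. Since pieces of tissue were measured, fewer cells of a type and less RNA per cell cannot be told apart.

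Regions were compared first with limma at a minimum difference of 1, called at an adjusted p under 0.01. In NAc against PFC, 2 of the 46 members were called, both lower in NAc (Cdh8 and Pcdh7), where 3.62% of all 19815 tested probesets were called. In VMB against PFC no member was called (0 of 46 by limma, with 3 at an unadjusted p under 0.05), beside 6.47% of all probesets. In NAc against VMB, 1 member was called, Cdh9, which was higher in NAc, beside 5.77% of all probesets. For most members the estimated difference lay within 1 of zero.

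At a smaller minimum difference of 0.5, 9 members passed in NAc against PFC, 3 higher (Cdh9, Cdh13 and Cdh15) and 6 lower in NAc (Cdh8, Cdh11, Clstn1, Pcdh7, Pcdh8 and Pcdhb17), where 15.1% of all probesets passed, 7.26% higher and 7.86% lower. In VMB against PFC 11 passed beside 19.1% of all probesets, and 10 of the 11 were lower in VMB (Cdh8, Cdh9, Cdh10, Cdh22, Celsr2, Clstn1, Pcdh8, Pcdhb7, Pcdhb12 and Pcdhb19), with Cdh20 alone higher. Lower calls made up 9.71% and higher calls 9.37% of all probesets there. In NAc against VMB 12 passed beside 19.6% (9.39% higher and 10.2% lower), 9 higher in NAc (Cdh4, Cdh9, Cdh13, Celsr2, Pcdhb7, Pcdhb9, Pcdhb19, Pcdhb20 and Pcdhb21) and 3 lower (Cdh20, Pcdh7 and Pcdh18). With no minimum difference, 32, 31 and 31 members passed in NAc against PFC, VMB against PFC and NAc against VMB, where 72.5%, 72.8% and 74.7% of all probesets did. The arrays of the regions did not overlap for 10, 10 and 12 members, beside 21.9%, 23.9% and 23.1% of all probesets. The shares past 0 and without overlap are close to those of all probesets and are not read as a result about the family. Each member is 1 probeset, that of highest mean signal, while all probesets hold several for some genes. Altogether 21 of the 46 members passed 0.5 in at least 1 comparison, against 33% of all probesets. The median difference over the members was -0.06 in NAc against PFC, -0.14 in VMB against PFC and 0.06 in NAc against VMB. Over all probesets it was 0.03, 0.02 and 0.02. The member medians and the counts past 0 include the members that passed the signal limit on NAc arrays only. Those of the NAc comparisons are therefore a description.

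**Figure D1:**
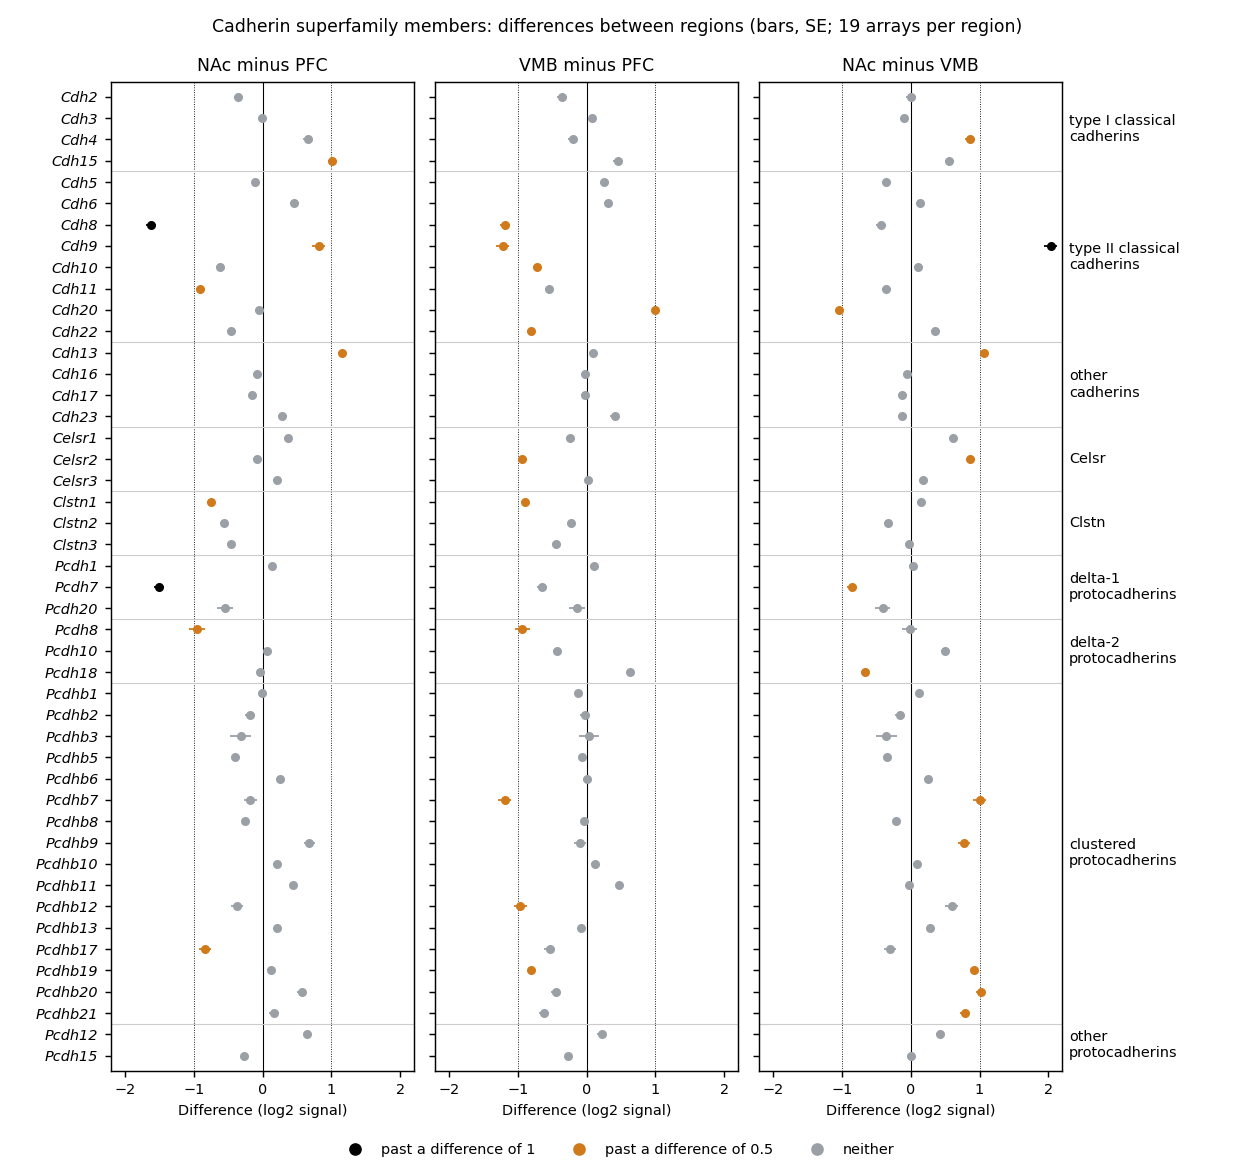
Difference of region means (x axis, log2 signal) for each of the 46 members (y axis, grouped by subfamily) in the 3 comparisons, with bars for the SE. Black points passed a minimum difference of 1, orange points passed 0.5 and grey points neither; most members lie within 1 of zero, and Cdh8, Pcdh7 and Cdh9 lie farthest out.

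Which members stood apart in a single region can be read from the same tests at 0.5. Cdh9 and Cdh13 were higher in NAc than in both other regions and Pcdh7 was lower there, beside 2.76% and 2.72% of all probesets. Cdh8, Clstn1 and Pcdh8 were higher in PFC than in both others (background 3.26%) and no member was lower (2.56%). Cdh20 was higher in VMB than in both others (4.99%), and Cdh9, Celsr2, Pcdhb7 and Pcdhb19 were lower in VMB (4.51%).

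Type II classical cadherins are adhesion receptors known for patterns that differ sharply between neuron groups, and this subfamily spanned the widest range of differences among the members. Cdh8, a type II cadherin of cortical and other forebrain neurons, ranged from 5.61 through a median of 6.17 to 6.74 in NAc, from 7.39 through 7.73 to 8.35 in PFC and from 6.14 through 6.55 to 6.97 in VMB. All 19 PFC arrays lay above every array of the other regions, whose ranges overlapped. The difference was -1.62 ± 0.07 (SE) in NAc against PFC, 3.08-fold lower in NAc (limma with a minimum difference of 1, adjusted p = 8.68e-11). In VMB against PFC it was -1.19, which missed the call at 1 (limma, adjusted p = 0.0738) and passed 0.5 (adjusted p = 4.94e-13). On the deposited values, where NAc arrays are brighter throughout, the NAc difference was -0.99 and was not called at 1.

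Cdh9, another type II cadherin, known from specific synapse formation in hippocampus, showed a different order. Its level ran from 6.80 through 7.69 to 8.07 in NAc, from 6.25 through 6.82 to 7.39 in PFC and from 4.81 through 5.66 to 6.26 in VMB. NAc and VMB arrays did not overlap, while PFC lay between them and its range met both. The difference was 2.03 ± 0.10 (SE) in NAc against VMB, or 4.10-fold (limma, minimum difference of 1, adjusted p = 3.82e-14), and it was 2.52 on the deposited values. In VMB against PFC it was -1.22 (adjusted p = 2.05e-09 at 0.5) and in NAc against PFC 0.81 (adjusted p = 0.00659 at 0.5), the latter being 1.47 and called at 1 on the deposited values. NAc replicate 1 and VMB replicate 1, both among the arrays least like their region, held the lowest values.

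The other type II members are described after their values were seen, apart from Cdh5. Cdh20 ran from 5.36 through 5.69 to 6.09 in NAc, from 5.60 through 5.74 to 6.02 in PFC and from 6.57 through 6.76 to 6.95 in VMB. Every VMB array was above every other array, with differences of 0.99 from PFC and 1.04 from NAc (limma at 0.5, adjusted p = 2.46e-15 and 6.51e-17), while NAc and PFC overlapped. The difference of NAc from VMB was -0.54 on the deposited values and did not pass 0.5 (adjusted p = 0.335). Cdh11, a cadherin of mesenchymal and of some neuronal cells, was 0.90 lower in NAc than in PFC (limma at 0.5, adjusted p = 5.68e-08), and no NAc array reached the lowest PFC array. This became -0.25 on the deposited values and did not pass 0.5. Of 5 meningeal and fibroblast markers, 4 were also lower in NAc at 0.5. Their list mean was 5.29 to 5.70 in NAc and 5.37 to 7.12 in PFC. In NAc against VMB all 5 were lower at 0.5, and Cdh11 differed by -0.35. In VMB against PFC 3 of the 5 were higher at 0.5, while Cdh11 differed by -0.55 and did not pass 0.5. The part of these markers in the Cdh11 differences was not tested. Cdh10 and Cdh22 were lower in VMB than in PFC by 0.72 and 0.81 (limma at 0.5, adjusted p = 0.000407 and 7.94e-07), again with no overlap, and on the deposited values that of Cdh10 was -0.66 and missed the call (adjusted p = 0.0334). Cdh6 differed by 0.45 or less in every comparison.

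Cdh5 (VE-cadherin) is the cadherin of endothelial junctions. It ran from 4.69 through 5.03 to 5.17 in NAc, from 4.72 through 5.12 to 5.33 in PFC and from 4.84 through 5.40 to 5.62 in VMB. The 3 ranges overlapped, and no difference passed 0.5, the largest being -0.37 ± 0.05 (SE) in NAc against VMB, whose sign turned on the deposited values (0.06). None of 8 endothelial marker genes passed 0.5 in any comparison (0 of 8 by limma, with 5 past 0 in each), and the mean of these 8 lay between 6.11 and 6.56 over all 57 arrays.

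Among type I classical cadherins, Cdh2 (N-cadherin) is the general cadherin of neural tissue and of synaptic junctions. It ran from 8.17 through 8.79 to 9.12 in NAc, from 8.71 through 9.10 to 9.29 in PFC and from 8.36 through 8.74 to 8.98 in VMB. The ranges overlapped, and the differences from PFC, -0.35 in NAc and -0.36 in VMB, each with an SE of 0.07, passed at a minimum difference of 0 (limma, adjusted p = 7.18e-06 and 5.45e-06) but not at 0.5. On the deposited values the NAc difference turned to 0.31, and a lesser probeset of Cdh2 gave -0.29 in NAc and 0.01 in VMB.

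Cdh15 (M-cadherin), known from muscle, had the largest difference of the type I group. It ran from 4.92 through 5.15 to 5.84 in NAc, from 3.96 through 4.22 to 4.64 in PFC and from 4.29 through 4.63 to 4.97 in VMB. NAc lay above PFC on every array, by 1.01 ± 0.06 (SE; limma at 0.5, adjusted p = 5.72e-10), although the highest NAc value came from replicate 1. As deposited, no PFC array of Cdh15 reached 4.5, and the difference was 1.71 and called at 1. Cdh4 (R-cadherin), a neural type I cadherin taken after its values were seen, was 0.86 higher in NAc than in VMB (limma at 0.5, adjusted p = 2.15e-06) with no overlap, and by 1.35 on the deposited values, where it was called at 1.

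Cdh13 (T-cadherin) has no transmembrane or cytoplasmic part and sits on a lipid anchor. It ran from 8.94 through 9.20 to 9.32 in NAc, from 7.58 through 8.08 to 8.28 in PFC and from 7.78 through 8.13 to 8.31 in VMB. Every NAc array was above every other array, and PFC and VMB overlapped. The differences were 1.15 ± 0.05 (SE) in NAc against PFC and 1.06 ± 0.05 against VMB (limma at 0.5, adjusted p = 1.24e-16 and 2.22e-14), and the first missed the call at 1 (adjusted p = 0.0766). On the deposited values they were 1.83 and 1.68, both called at 1. The other kept probesets of Cdh13 differed less, by 0.16 and 0.22 in NAc against PFC and by 0.27 each against VMB, with none past 0.5. The remaining 3 genes of this group, Cdh16 and Cdh17, known from kidney and gut, and Cdh23, known from hair cells of the ear, did not pass 0.5 in any comparison.

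**Figure D2:**
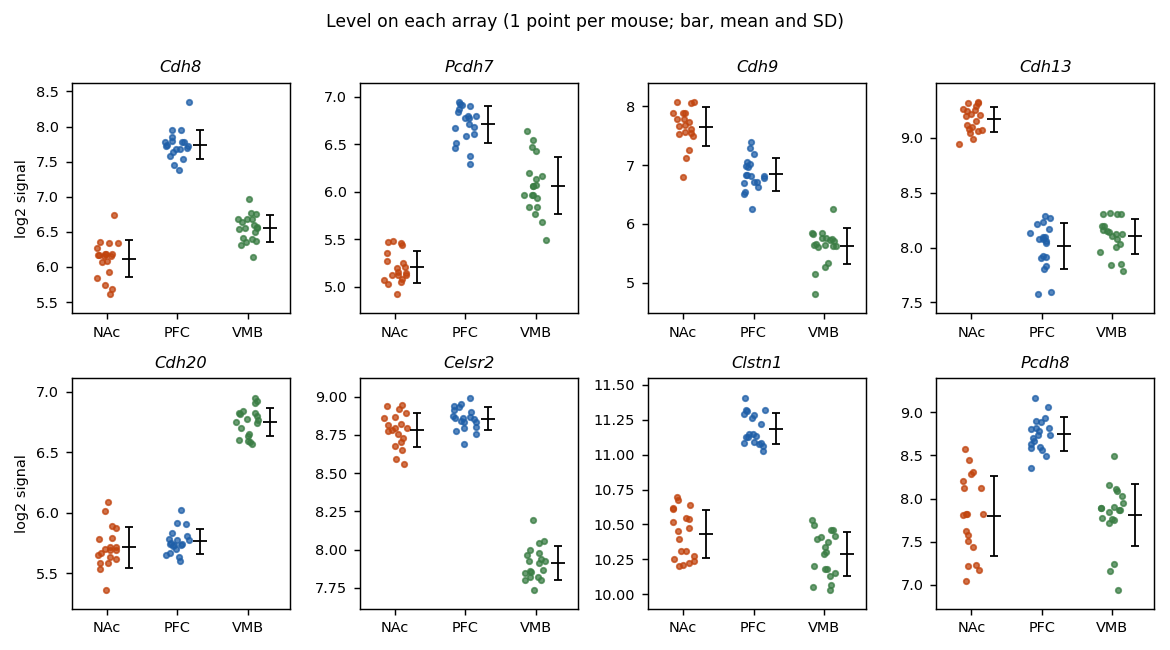
Level on each array (y axis, log2 signal after quantile normalization; each panel has its own range and does not start at 0) of 8 members in NAc, PFC and VMB, with 1 point per array and a bar for mean and SD of 19 arrays. PFC stands above for Cdh8 and Clstn1, NAc stands below for Pcdh7 and above for Cdh13, VMB stands above for Cdh20 and below for Celsr2, and Cdh9 falls from NAc through PFC to VMB.

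The Celsr genes did not move together. Celsr2 ran from 8.56 through 8.79 to 8.94 in NAc, from 8.69 through 8.86 to 8.99 in PFC and from 7.74 through 7.92 to 8.20 in VMB. The VMB arrays all lay below those of NAc and PFC, which overlapped. The differences were -0.94 ± 0.03 (SE) in VMB against PFC and 0.87 ± 0.03 in NAc against VMB (limma at 0.5, adjusted p = 4.09e-18 and 8.71e-15), and the second probeset of Celsr2 gave -0.62 and 0.51, neither past 0.5. The NAc difference from VMB was 1.48 on the deposited values and called at 1.

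Celsr1 was low throughout. As deposited it reached 4.5 on 15 NAc arrays and on none of PFC or VMB, so it was tested only because of the region where it is high and its differences are given as a description. It ran from 3.99 through 4.14 to 4.38 in NAc, from 3.44 through 3.80 to 4.35 in PFC and from 3.35 through 3.55 to 3.78 in VMB. NAc and VMB did not overlap, and the difference was 0.61 ± 0.05 (SE). Celsr3, which is required for major forebrain axon tracts, ran from 6.76 through 6.94 to 7.51 in NAc, from 6.36 through 6.76 to 7.0 in PFC and from 6.42 through 6.78 to 7.11 in VMB. All 3 of its ranges overlapped, and its differences from NAc, 0.21 and 0.18, passed at 0 only. Of 10 planar polarity partners measured, none passed 0.5 in either NAc comparison by limma, beside 15.1% and 19.6% of all probesets, and 5 passed at 0 against PFC and 9 against VMB, beside 72.5% and 74.7%. In VMB against PFC 3 of the 10 passed 0.5, beside 19.1%. Vangl1 and Vangl2, core membrane proteins of the pathway, were higher in VMB by 0.95 and 0.70 and Prickle1, a core cytoplasmic protein, was lower by 0.73 (limma at 0.5, adjusted p = 5.30e-09, 0.000168 and 3.25e-06).

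The calsyntenins were highest in PFC on the common scale. Clstn1 ran from 10.21 through 10.45 to 10.70 in NAc, from 11.02 through 11.14 to 11.41 in PFC and from 10.03 through 10.30 to 10.53 in VMB. PFC did not overlap with the other regions. Clstn1 was lower than in PFC by 0.76 ± 0.05 (SE) in NAc and by 0.90 ± 0.05 in VMB (limma at 0.5, adjusted p = 1.23e-05 and 1.71e-10), but on the deposited values the NAc difference was only -0.05. Its second probeset gave -1.39 in NAc against PFC, past a minimum difference of 1 (limma, adjusted p = 3.18e-05), and -0.76 in NAc against VMB, where the first gave 0.14, so the 2 probesets disagree on NAc against VMB.

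Clstn2, which organizes synapses, ran from 7.02 through 7.34 to 7.47 in NAc, from 7.64 through 7.85 to 8.17 in PFC and from 7.47 through 7.63 to 7.99 in VMB. NAc lay below PFC with no overlap, by 0.56 ± 0.04 (SE), which passed at 0 and not at 0.5 (limma, adjusted p = 0.393). Clstn3, a neurexin-binding calsyntenin, ran from 8.01 through 8.26 to 8.43 in NAc, from 8.48 through 8.68 to 9.08 in PFC and from 7.94 through 8.28 to 8.90 in VMB. NAc and PFC did not overlap, and VMB overlapped with both. Its differences from PFC were -0.47 in NAc and -0.44 in VMB, past 0 only. The sign of the NAc difference from PFC turned on the deposited values, to 0.09 for Clstn2 and 0.19 for Clstn3. Of 3 calsyntenin partners measured, Apba2, an adaptor also called X11-like, was lower than in PFC by 0.87 in NAc and 0.77 in VMB (limma at 0.5, adjusted p = 1.69e-08 and 1.53e-05).

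Of the delta protocadherins, which signal through conserved cytoplasmic motifs, Pcdh7 differed most. It ran from 4.92 through 5.16 to 5.48 in NAc, from 6.29 through 6.78 to 6.94 in PFC and from 5.50 through 6.06 to 6.64 in VMB. NAc lay below both other regions on every array, and VMB overlapped with PFC. The difference was -1.50 ± 0.07 (SE) in NAc against PFC, 2.83-fold lower in NAc (limma with a minimum difference of 1, adjusted p = 7.18e-08), and -0.86 in NAc against VMB (adjusted p = 1.98e-05 at 0.5). On the deposited values these were -0.91 and -0.39, of which neither was called at 1 and the second did not pass 0.5.

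Pcdh8 (arcadlin), which is induced by neuronal activity and takes part in the internalization of N-cadherin at synapses, was the delta-2 member with the largest difference. It ran from 7.04 through 7.82 to 8.57 in NAc, from 8.35 through 8.74 to 9.17 in PFC and from 6.95 through 7.87 to 8.49 in VMB. PFC was higher, but its lowest arrays overlapped with the highest of both other regions, which spread widely. The differences from PFC were -0.95 ± 0.11 (SE) in NAc and -0.94 ± 0.11 in VMB (limma at 0.5, adjusted p = 0.000585 and 0.000709), and the lowest values in NAc and in VMB were both those of replicate 1. The NAc difference was -0.30 on the deposited values and did not pass 0.5.

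Pcdh18 and Pcdh10, described after their values were seen, gave different values on their probesets. Pcdh18 was 0.66 lower in NAc than in VMB (limma at 0.5, adjusted p = 0.00186) with no overlap, but the difference was -0.17 on the deposited values and did not pass there. Its second probeset gave 0.20 the other way. As deposited that probeset reached 4.5 on 8 NAc arrays and on 0 of PFC or VMB. It was thus tested only through NAc, where it is higher, and its sign is given as a description. Meningeal and fibroblast markers were also lower in NAc than in VMB, all 5 of 5 at 0.5. Their list mean was 5.29 to 5.70 in NAc and 6.80 to 7.38 in VMB. In VMB against PFC 3 of the 5 were higher at 0.5, and the first Pcdh18 probeset differed by 0.63. In NAc against PFC 4 of the 5 were lower at 0.5, while that probeset differed by -0.03. The part of these markers in the Pcdh18 differences was not tested. Pcdh10 differed by 0.07 in NAc against PFC and by -0.43 in VMB against PFC, where its second probeset gave -0.74 and -1.16, both past 0.5 (limma, adjusted p = 0.00788 and 2.20e-11). Over the 9 members with other kept probesets, 20 of 30 differences had the sign of the probeset used. The 30 come from 10 probesets in 3 linked comparisons. Of these probesets, those of Cdh5 and Pcdh18 and 1 of Cdh13 reached 4.5 on NAc arrays only (1, 8 and 3 arrays). The share over all genes was not counted, so the 20 of 30 is not read as a result about the family.

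The clustered Pcdhb genes lie side by side and resemble one another, so probes of one may also bind transcripts of another and single genes are uncertain. Of the 16 members, none was called at 1. At 0.5, 5 passed in NAc against VMB, all higher in NAc (Pcdhb7, Pcdhb9, Pcdhb19, Pcdhb20 and Pcdhb21), 3 in VMB against PFC, all lower in VMB (Pcdhb7, Pcdhb12 and Pcdhb19), and 1 in NAc against PFC (Pcdhb17, lower in NAc). The shares of all probesets were 9.39% higher, 9.71% lower and 7.86% lower in these comparisons. The medians over the 16 were 0.19, -0.09 and 0.06 in the same order. They include Pcdhb1, Pcdhb6, Pcdhb10, Pcdhb11 and Pcdhb13, which passed the signal limit on NAc arrays only. The medians of the NAc comparisons may therefore lean towards NAc and are given as a description.

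Pcdhb7 had the largest difference of the cluster. As deposited it reached 4.5 on 19 NAc, 18 PFC and 0 VMB arrays, so its VMB level lay below that limit. It ran from 4.14 through 5.11 to 5.56 in NAc, from 4.77 through 5.17 to 5.85 in PFC and from 3.48 through 4.01 to 4.41 in VMB. No VMB array reached the lowest PFC array, while a few NAc arrays fell into the VMB range. VMB was lower than PFC by 1.19 ± 0.10 (SE; limma at 0.5, adjusted p = 5.69e-09), and NAc was higher than VMB by 1.01 ± 0.10 (adjusted p = 6.48e-06), or 1.46 and called at 1 on the deposited values.

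Other beta genes, named after their values were seen, shared parts of this pattern. Pcdhb19 and Pcdhb20 were higher in NAc than in VMB by 0.92 and 1.02 on non-overlapping arrays (limma at 0.5, adjusted p = 2.40e-09 and 1.09e-09), and by 1.35 and 1.497 on the deposited values, where both were called at 1 and no VMB array of Pcdhb19 reached 4.5. Pcdhb12 was lower in VMB than in PFC by 0.96, also without overlap (limma at 0.5, adjusted p = 1.40e-05), but the difference was -0.73 on the deposited values and missed the call (adjusted p = 0.0114), as did that of Pcdhb19 (-0.55). Pcdhb17 was 0.84 lower in NAc than in PFC (limma at 0.5, adjusted p = 0.000737) and without overlap, while its difference in NAc against VMB was -0.30. Both moved on the deposited values, to -0.21, not past 0.5, and to 0.19, with the sign turned. Among regulators and partners of protocadherins, 9 genes were measured, of which 1 was called lower at 1 in NAc against PFC, 3 lower in VMB against PFC and 2 higher in NAc against VMB, beside 3.62%, 6.47% and 5.77% of all probesets called either way. Ptk2b (Pyk2), a kinase that protocadherins inhibit, differed by -2.92 in VMB against PFC and by 2.79 in NAc against VMB, and Wasf1, a WAVE complex subunit, by -1.64 and 1.47 in the same comparisons (all called at 1 by limma, the weakest at adjusted p = 1.20e-14). Cyfip2, another WAVE complex subunit, differed by -1.25 in NAc against PFC and by -1.29 in VMB against PFC (limma at 1, adjusted p = 0.00183 and 0.000126).

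**Figure D3:**
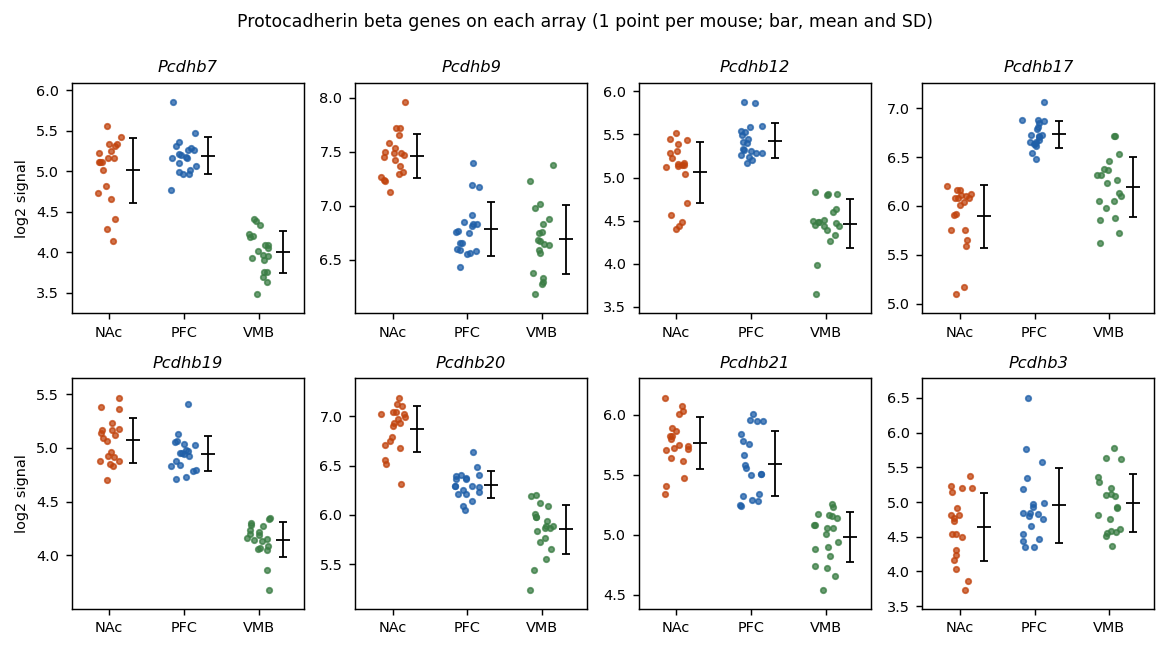
Level on each array (y axis, log2 signal after quantile normalization; each panel has its own range and does not start at 0) of 8 Pcdhb genes in NAc, PFC and VMB, with 1 point per array and a bar for mean and SD of 19 arrays. VMB is lowest for Pcdhb7, Pcdhb12, Pcdhb19 and Pcdhb21, NAc is highest for Pcdhb9 and Pcdhb20 and lowest for Pcdhb17, and Pcdhb3 spreads within every region.

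Of the remaining protocadherins, Pcdh12, a protocadherin of endothelial cells, had the larger difference and Pcdh15 is known from hair cells. Pcdh12 ran from 4.51 through 4.79 to 5.36 in NAc, from 3.91 through 4.20 to 4.55 in PFC and from 4.20 through 4.37 to 4.99 in VMB. The ranges overlapped, and NAc was 0.65 ± 0.06 (SE) above PFC, which missed 0.5 (limma, adjusted p = 0.0668). As deposited, where no PFC array reached 4.5, it was 1.35 and called at 1 (limma, adjusted p = 3.72e-05).

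The catenins and junction partners of cadherins included larger differences from PFC than any cadherin did. Of 13 measured, Ctnnd1 (p120-catenin, which holds cadherins at the membrane) was lower in NAc than in both other regions, differing by -2.48 ± 0.05 (SE) from PFC and by -1.80 ± 0.05 from VMB (limma, minimum difference of 1, adjusted p = 1.06e-36 and 1.16e-23). Nectin3, an adhesion molecule of puncta adherentia, differed from PFC by -2.13 in NAc and -1.94 in VMB (adjusted p = 1.12e-11 and 2.05e-09). At 0.5, 1 partner was higher and 2 lower in NAc against PFC, 1 higher and 4 lower in VMB against PFC, and 1 higher and 1 lower in NAc against VMB, beside 15.1%, 19.1% and 19.6% of all probesets. Ctnna1, the general alpha-catenin, was higher than in PFC by 0.82 in NAc and 1.04 in VMB, beside which all 7 oligodendrocyte markers passed 0.5 in the same direction in both comparisons, with a mean of 10.22 to 10.51 in NAc, 7.99 to 9.34 in PFC and 11.06 to 11.35 in VMB, and their part in that difference was not tested. Ctnnb1 (beta-catenin) did not pass 0.5 in any comparison, its differences lying between -0.56 and 0.18. Adam10, a protease that cleaves cadherins and protocadherins, was 0.67 lower in VMB than in PFC (limma at 0.5, adjusted p = 0.00144).

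Spread over mice of one inbred strain was described as the SD over the 19 arrays of a region. With 1 array per mouse and region, differences between mice cannot be told apart from those of dissection, RNA or array. The arrays least like their region were kept in this SD. The median SD of the members was 0.181 in NAc, 0.145 in PFC and 0.181 in VMB, beside 0.159, 0.134 and 0.165 for all probesets, and 30, 32 and 29 of the 46 members lay above those values. Pcdh20, a delta-1 protocadherin, was the most variable in NAc, running from 4.99 through 5.91 to 6.73 with an SD of 0.526, while its SD was 0.198 in PFC and 0.275 in VMB. Pcdhb3 was the most variable member in PFC and VMB, running from 3.74 through 4.73 to 5.37 in NAc, from 4.35 through 4.84 to 6.50 in PFC and from 4.37 through 4.92 to 5.78 in VMB. Its highest PFC value was that of replicate 3. That array was also highest in PFC for Cdh8, Cdh9, Cdh11, Cdh20, Pcdh1, Pcdh7, Pcdh20, Pcdhb17, Pcdhb19 and Clstn2. The least variable were Clstn3 in NAc (0.108), Celsr2 in PFC (0.0738) and Celsr1 in VMB (0.109).

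**Figure D4:**
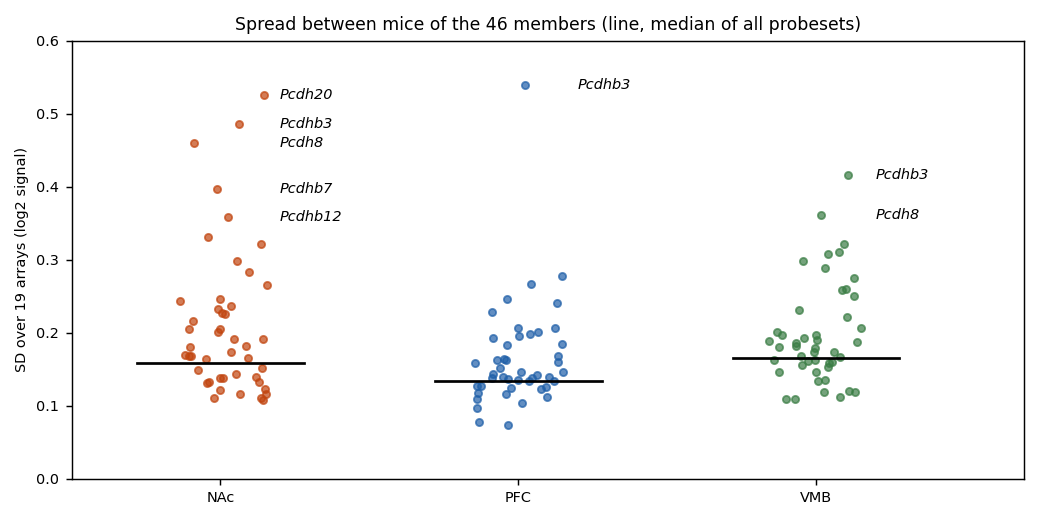
SD over the 19 arrays of a region (y axis, log2 signal) of each of the 46 members in NAc, PFC and VMB, with a line at the median SD of all tested probesets (0.159, 0.134 and 0.165) and the most variable members named. Pcdhb3 is among the most variable in all 3 regions, and Pcdh20 in NAc.

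Levels were correlated between regions over the 18 replicate numbers with arrays in both, for each of the 46 members and 3 pairs of regions. Each number was taken as 1 mouse. A different number is absent in each region, so under this reading some mice lack a region. That conflicts with the labels, by which every animal has an array in each region. The pairing is therefore uncertain, and the correlations cannot decide whether levels go together within a mouse. No member passed an adjusted p under 0.05 in any pair (0 of 46 by Pearson's r with Benjamini-Hochberg adjustment over all probesets), beside 0.0101% of all probesets in NAc and PFC, 0.0202% in NAc and VMB and 0.0353% in PFC and VMB. By the unadjusted p of Pearson's r that was computed for all probesets, at 0.05, 4 members were positive and 1 negative in NAc and PFC (all probesets 3.84% and 1.23%), 7 and 1 in NAc and VMB (4.91% and 1.15%), and 2 and 0 in PFC and VMB (3.20% and 2.43%). By the permutation p of r the members' counts were 5 and 1, 7 and 1, and 2 and 0. The highest was Cdh6 in NAc and VMB, with Pearson's r 0.670 (permutation p = 0.00202, adjusted p = 0.675) and Spearman's rho 0.628 (permutation p = 0.00600). Its r became 0.545 without the 2 mice farthest from the NAc median, while mice far out in VMB only were not removed. This r was 0.378 after the first principal component of each region was removed. Pcdhb12 gave r 0.627 in NAc and PFC (permutation p = 0.00557, rho 0.666 with permutation p = 0.00360, adjusted p = 0.898) and 0.617 in NAc and VMB (permutation p = 0.00525, rho 0.445 with permutation p = 0.0658, adjusted p = 0.730). These r became 0.575 and 0.553 without the 2 mice farthest from the NAc median, and 0.469 and 0.422 without the first principal component. Both genes were named after their values were seen, and neither relation held after adjustment.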

How the data were processed

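The authors deposited RMA signals on the log2 scale for 22626 probesets of 57 Affymetrix mouse arrays, 1 mouse and region each. GCOS and RMA are the tools in the submitters' processing notes. A probeset was tested when its deposited value reached 4.5 on at least 1 array, which kept 19815. Of all probesets 20380 carry 1 symbol in the platform annotation, 691 several and 1555 none. Values were quantile-normalized over all arrays and fitted with 1 mean per region (limma 3.58.1, R 4.3.3, treat), with Benjamini-Hochberg adjustment over all tested probesets. A gene was called at adjusted p under 0.01 with a minimum difference of 1, and 0.5 and 0 were alternatives. P-values measure the spread between these arrays. Per the labels each animal gave 1 array per region, but titles hold only a replicate number, which was taken to mark the mouse. The absent numbers differ between regions, which conflicts with that reading, so the pairing of arrays is uncertain. After removal of region means same-numbered arrays correlated at 0.06, 0.07 and 0.01 on average, with 3, 10 and 5 of 18 pairs over 0.1, and the number as a block was an alternative (statmod 1.5.0). Correlations over mice had 100000 permutations, two-sided. Of 19815 probesets 1 did not vary over the NAc mice and was left out of both pairs with NAc.

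Named with values were the called members, all Celsr and Clstn genes, Cdh2, Cdh5 and the member with the largest difference of any subfamily without a call. The subfamilies, partner lists and marker lists (neurons of 4 kinds, oligodendrocytes, astrocytes, microglia, endothelium, meninges, choroid plexus and blood) are from general knowledge, and the members and lists were chosen with earlier results of these data known. The medians of the other marker lists in NAc, PFC and VMB were 4.48, 4.27 and 6.64 for thalamus and midbrain neurons, 8.26, 8.45 and 8.92 for astrocytes, 8.16, 8.11 and 7.86 for microglia, 4.62, 4.49 and 5.09 for choroid plexus, and 4.52, 4.60 and 5.09 for blood. The scripts were tested on simulated data. Alternatives were the scale, the minimum difference, the threshold, the filter, array weights, a mean-variance trend, the probeset, the mouse block, and leaving out arrays. Precision is limited by having 19 arrays in each region.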

Additional observations from a re-analysis of the deposited data

How the results depend on the processing

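On the values as deposited, 7 members were called at a minimum difference of 1 in NAc against PFC and 8 in NAc against VMB. The counts on the common scale were 2 and 1, and every NAc array is brighter as deposited. Of the 7, Pcdhb11 reached 4.5 on NAc arrays only. Shares of all probesets are not given for the deposited values, so counts there are not read as a result about the members. Cdh8 and Pcdh7 lost their call in NAc against PFC, at -0.99 and -0.91. With a minimum difference of 0.5 the counts were 9, 11 and 12 in NAc against PFC, VMB against PFC and NAc against VMB, and with 0 they were 32, 31 and 31. The counts past 0.5 became 25 and 21 in the NAc comparisons on the deposited values, an alternative chosen after seeing the data. The 25 in NAc against PFC include all 8 members that reached 4.5 on NAc arrays only. Those 8 passed the filter through the region where they are high, so both counts are a description. Of the 32, 31 and 31 members past 0, 11, 3 and 8 had the opposite sign on the deposited values, and 1, 1 and 0 after centring each array on its median. Of the members past 0.5, 5 of 9, 8 of 11 and 8 of 12 also passed on both other scales. The second probeset of Pcdh18 gave 0.20 in NAc against VMB, where the first gave -0.66. That probeset passed the filter on NAc arrays only, so the change of sign is a description. With the replicate number as a replicate block (consensus correlation 0.0546) the counts were 2, 0 and 1, of the same members, and past 0 the count in NAc against VMB moved from 31 to 33. The other 46 counts tried stayed within 1.5 times the reported count, among them those without PFC replicate 20, without the 3 arrays of each region least like their region, and with array weights. The reported counts of calls are only 2, 0 and 1, and a 0 has no such range, so this says little about robustness. No correlation between regions passed under any alternative tried. Weak signal limits the comparisons, since as deposited 15 members reached 4.5 on no PFC array and 10 on no VMB array.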
